A study of Mus musculus with 2 samples.

Results

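The genes examined were 10 members of the epidermal growth factor (EGF) system. They comprised the ligand genes *Egf*, *Hbegf*, *Areg*, *Ereg*, *Tgfa* and *Nrg1* and the receptor genes *Egfr*, *Erbb2*, *Erbb3* and *Erbb4*. They were taken by gene symbol from a table of 19829 genes, and 8 of the 10 had a row. *Areg* and *Ereg* had none and were not analysed here. Kidney messenger RNA was sequenced from mice in which acute kidney injury (AKI) had been induced, with 1 library per group. WT+AKI was wild-type, and TG+AKI was transgenic and overexpressed *Inmt*, a methyltransferase gene, in the proximal tubules. How many mice each library came from is not given in the sources used here. By the study's methods both groups were male C57BL/6 mice that received the calcineurin inhibitor voclosporin (Voc, 30 mg/kg per day for 2 weeks, from 8 to 10 weeks of age) and bilateral ischemia of 30 min followed by reperfusion (I/R) at 14 weeks. The kidney was collected 24 h after reperfusion by one description in the study and 48 h by another. The treatment field of both samples names no treatment, while the series design names Voc, and the TG+AKI sample's title has the words conditional knockout beside the transgene. No group without injury and no group without Voc was analysed here.

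EGF family ligands are made as membrane-anchored precursors, and proteases at the cell surface release the part that binds a receptor. The receptors pair on binding and phosphorylate each other, which engages adaptors, the RAS–ERK chain, PI3 kinase and STAT factors. In the kidney, *Egf* is transcribed mainly in the thick ascending limb and the distal convoluted tubule, whereas HB-EGF and TGF-alpha are known as ligands of injured tubular epithelium. EGF also acts on magnesium uptake in the distal convoluted tubule. EGFR binds EGF, TGF-alpha, HB-EGF and amphiregulin. ERBB2 has no known ligand of its own, ERBB3 has a weak kinase and binds neuregulins, and ERBB4 binds neuregulins and HB-EGF.

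The reads recovered over the listed genes summed to 38542764 for WT+AKI and 36427421 for TG+AKI. Each value below is a normalized value on the deposited scale, where a single read counts 0.0236 (WT+AKI) or 0.0302 (TG+AKI). A ratio is TG+AKI over WT+AKI, and brackets hold its 95% exact (Clopper-Pearson) interval from the reads of both libraries. Such intervals cover the counting error of reads only, and reads are PCR products without molecular identifiers. No difference could be checked against the spread between replicates, with 1 library each. A gene was compared when its value reached 1 in at least 1 library (14997 genes), and it was called at a ratio of at least 2 or at most 0.5. *Inmt* itself had 10.4 (WT+AKI) and 402.8 (TG+AKI), which follows the label of the transgene. In whole-kidney RNA, fewer cells of a type and less RNA per cell cannot be told apart.

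The sequences before the transcription start are shown for *Egf*, the member with the highest ratio, and for *Tgfa*, a ligand called lower. Both have an entry in the RefSeq promoter table (GRCm38.p6, the assembly also named mm10). No such sequence was examined for the other ligands called lower. The sequences shown run 5′ to 3′ over the 250 bases before the start. Capitals mark the matches to the motifs searched, on either strand.
*Egf*, chr3:129755323-129755572, minus strand: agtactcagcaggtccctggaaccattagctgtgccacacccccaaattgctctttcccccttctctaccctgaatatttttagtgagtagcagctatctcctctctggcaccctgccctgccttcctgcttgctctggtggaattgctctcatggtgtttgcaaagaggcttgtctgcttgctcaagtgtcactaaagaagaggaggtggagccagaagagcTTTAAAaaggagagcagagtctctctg
*Tgfa*, chr6:86194972-86195221, plus strand: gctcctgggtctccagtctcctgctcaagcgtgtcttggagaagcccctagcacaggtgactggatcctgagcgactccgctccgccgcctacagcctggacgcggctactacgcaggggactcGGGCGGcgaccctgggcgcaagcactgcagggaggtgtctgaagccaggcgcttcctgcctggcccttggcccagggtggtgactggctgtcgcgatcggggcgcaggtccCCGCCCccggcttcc

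The motifs searched were the TATA box (TATAAA), the CCAAT box (CCAAT), the GC box (GGGCGG), the AP-1 site (TGANTCA) and, added after the *Egf* sequence had been read, the TATA-like run TTTAAA. The *Egf* window shown held 1 TTTAAA, which ended 21 bases before the start, and none of the other motifs. The table lists a second *Egf* start inside the gene, and its window (chr3:129725087-129725336) held none of the motifs searched, TTTAAA included. TTTAAA was present in 12.1% of the 32851 RefSeq windows of this length. The *Tgfa* window held 2 GC boxes, a motif present in 32.7% of all windows. G and C made up 50.4% of the *Egf* window shown and 69.2% of the *Tgfa* window, against a median of 52.4% over all windows. Neither window held an AP-1 match, which 6.75% of all windows had, and neither held a CCAAT box (33.8% of all windows) or a TATAAA (12.4%). A match or its absence describes these letters only.

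Of the 8 members with a row, all passed the filter. *Egf* alone was called higher in TG+AKI, and the other ligands *Hbegf*, *Tgfa* and *Nrg1* were called lower, while none of the 4 receptors was called. Over all genes compared, 7.35% were called higher (1103 genes) and 11.0% were called lower (1645 genes), and among the 8 members these shares were 12.5% (1 gene) and 37.5% (3 genes). With both libraries scaled to the same total, the share of higher genes among all called genes was 22.6% instead of 40.1%, and the calls of the 8 members were the same genes. The members' median log2 ratio was -0.26, against -0.02 over all genes compared.

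**Figure D1:**
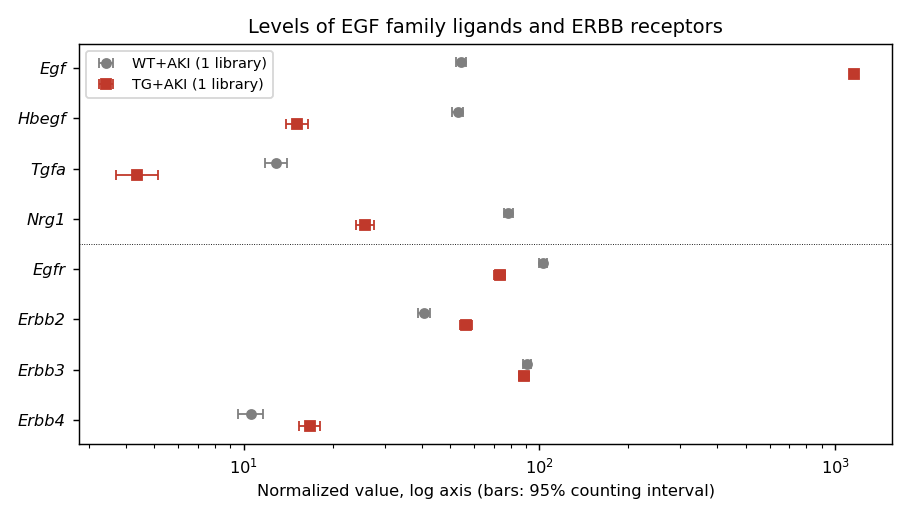
Normalized value of each member with a row in WT+AKI (grey circles) and TG+AKI (red squares), 1 library each, on a log axis with 95% exact Poisson intervals. *Egf* lies far to the right in TG+AKI (1159.6 against 54.3), *Hbegf*, *Tgfa* and *Nrg1* lie to the left, and the receptors below the dotted line lie close together.

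*Egf* (gene ID 13645, chr3:129677565-129755316, minus strand) encodes the precursor from which EGF is released into the urine. The WT+AKI library had a value of 54.3 (2303 reads) and the TG+AKI library 1159.6 (38402 reads). The ratio was 21.3 [20.5 to 22.3], and it was the 11th highest of the 14997 genes compared. Antisense genes on the opposite strand overlap 9.82% of its exon bases. One of them, *6330410L21Rik*, had 7 and 56 reads, few beside those of *Egf*.

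The 5 genes with the most similar ratio among those reaching a value of 100 in either library were *Ugt2b37* (ratio 17.5), *Hsd3b2* (17.4), *Gatm* (16.2), *Slc22a28* (16.0) and *Gm4450* (15.3). All of these lay below *Egf* by 0.29 to 0.48 on the log2 scale, a likeness measured over 2 libraries only. Except for *Gatm*, which encodes the first enzyme of creatine synthesis, they belong to multigene families whose members can share sequence. Sequence shared with other genes was examined for the 8 members only, so its effect on these ratios was not tested.

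*Hbegf* (gene ID 15200, on chromosome 18, positions 36504927 to 36515805) encodes heparin-binding EGF-like growth factor, a ligand of EGFR and ERBB4. The values were 52.9 from 2243 reads in WT+AKI and 15.2 from 503 reads in TG+AKI. The TG+AKI library was 3.48-fold lower [3.16 to 3.84]. Its ratio was the lowest of the members.

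*Nrg1* (gene ID 211323, chr8:31814551-32884029) encodes neuregulin 1, the ligand of ERBB3 and ERBB4. WT+AKI had 78.6 from 3332 reads and TG+AKI 25.8 from 853 reads, which is 3.05-fold lower [2.83 to 3.29]. *Tgfa* (gene ID 21802, chr6:86195223-86275719) encodes transforming growth factor alpha, which binds EGFR. It had 12.9 (547 reads) and 4.38 (145 reads), a level 2.95-fold lower [2.45 to 3.56]. The intervals of the 3 lower ligands overlapped one another, and whether their ratios differed from one another was not tested. They ranked between positions 692 and 860 from the lowest ratio among the 14997 genes.

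The 5 remaining ligand genes of the family were looked up as well. *Btc*, which encodes the EGFR and ERBB4 ligand betacellulin, had 6.49 and 9.84, a ratio of 1.52 [1.29 to 1.79]. *Nrg4*, which encodes a ligand of ERBB4, had 1.34 (57 reads) and 0.936 (31 reads). Its ratio of 0.696 had an interval that includes 1 [0.434 to 1.10], so no difference was detectable at this depth. *Epgn*, *Nrg2* and *Nrg3* had no row and were not analysed here. Neither *Btc* nor *Nrg4* passed 2-fold.

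*Egfr* (gene ID 13649, chr11:16752203-16918158) encodes the receptor of EGF, TGF-alpha and HB-EGF. WT+AKI had 102.7 from 4354 reads and TG+AKI 73.4 from 2430 reads, a ratio of 0.715 [0.680 to 0.751]. *Erbb2* (gene ID 13866, chr11:98412470-98437716), the partner without a ligand, had 40.8 and 56.4, a ratio of 1.38 [1.29 to 1.47]. The intervals of these receptors lie on opposite sides of 1. Under all 3 other scalings *Egfr* stayed below 1 and *Erbb2* above it, with log2 ratios from -0.76 to -0.47 and from 0.19 to 0.48 over all alternatives.

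*Erbb3* (gene ID 13867, chr10:128567523-128589652), which binds neuregulins and recruits PI3 kinase, had 90.6 (3840 reads) and 88.7 (2938 reads). Its ratio was 0.980 [0.933 to 1.03], a difference within counting error on the deposited scale, and with equal column totals the log2 ratio was -0.30. *Erbb4* (gene ID 13869, chr1:68032186-69108059), a second neuregulin receptor, had 10.6 (448 reads) and 16.7 (554 reads). The ratio of 1.58 [1.40 to 1.80] was the highest of the receptors and did not reach 2-fold. No receptor ratio lay outside 0.715 to 1.58, whereas the called ligands lay at 0.339 or less and at 21.3.

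**Figure D2:**
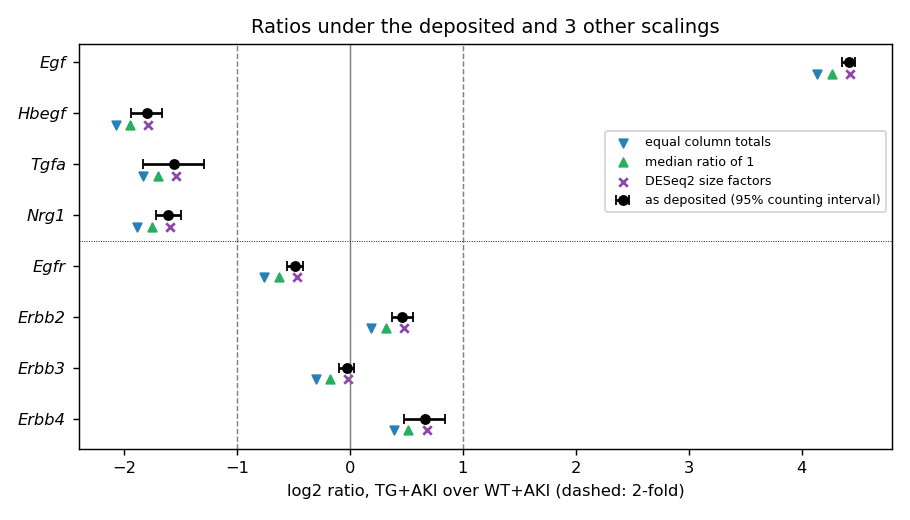
Log2 ratio of TG+AKI over WT+AKI for each member as deposited (black, with the 95% counting interval) and under equal column totals, a median ratio of 1 and DESeq2 size factors (coloured symbols). The 4 ligands above the dotted line lie past the dashed 2-fold lines under each of these scalings, and the 4 receptors between them.

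Levels of different genes were compared per kilobase of the longest annotated transcript. In WT+AKI, *Hbegf* held the largest share of the 6 listed ligands at 37.1%, *Nrg1* held 29.4% and *Egf* 23.1%. In TG+AKI the share of *Egf* was 94.6%, that of *Hbegf* 2.04% and that of *Nrg1* 1.85%. Per kilobase the ligands summed to 49.3 (WT+AKI) and 257.4 (TG+AKI), and without *Egf* it was 37.9 and 13.9, a ratio of 0.366. Thus the library with the larger ligand sum had the smaller sum of all ligands other than *Egf*. With the median transcript length the share of *Egf* was 20.3% and 93.5%, and *Nrg1* (40.8%) instead of *Hbegf* (24.2%) was first in WT+AKI.

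For the receptors, the sum per kilobase was 34.1 in WT+AKI and 34.6 in TG+AKI. *Erbb3* held 44.1% and 42.7% of it, *Egfr* 29.5% and 20.8%, *Erbb2* 23.9% and 32.5%, and *Erbb4* 2.57% and 4.02%. This order rests on the length used. The median transcript of *Egfr* in the annotation has 716 bases against 10208 for the longest, and with median lengths *Egfr* held 83.1% and 74.5% of a sum that was 0.797-fold in TG+AKI. The order of the receptors therefore could not be settled, while the ratio of each receptor does not involve the length.

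**Figure D3:**
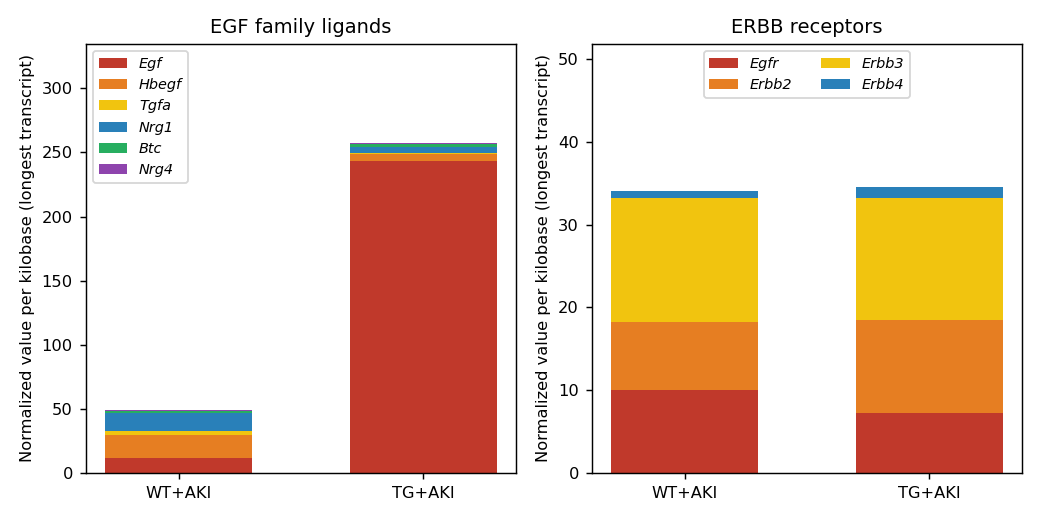
Stacked normalized value per kilobase of the longest transcript for the 6 listed ligands (left) and the 4 receptors (right), 1 bar per library. *Egf* makes up 23.1% of the ligand bar in WT+AKI and 94.6% in TG+AKI, while the receptor bars reach 34.1 and 34.6.

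Ligand release was examined with 14 genes of shedding proteases and their regulators. None was called higher and 3 were called lower (21.4%, against 11.0% over all genes compared), with a list median of -0.27. *Adam17*, which encodes the main sheddase of TGF-alpha, amphiregulin and HB-EGF, had 41.9 and 37.2, a ratio of 0.887 [0.824 to 0.954]. *Rhbdf2* (iRhom2), which carries ADAM17 to the surface, had 46.5 and 11.4, a level 4.09-fold lower [3.66 to 4.58]. *Rhbdl2*, which encodes a rhomboid protease, had 6.27 and 1.60, a level 3.92-fold lower [2.91 to 5.37]. The largest difference was that of *Adam8*, a metalloprotease gene also expressed in leukocytes, with 24.3 (1032 reads) and 0.332 (11 reads), a level 73.3-fold lower [40.8 to 147.3]. *Frmd8*, whose product stabilises iRhom proteins, had 45.1 and 24.7 and did not pass 2-fold. Thus the *Adam17* transcript differed little between the libraries, while *Rhbdf2*, one of its partners, was among the called genes. Outside the rule for named genes, the related *Rhbdf1* had 69.6 and 41.4, a ratio of 0.595 [0.558 to 0.635]. *Timp3* had the highest ratio of the list, 1.73 (1202.3 and 2075.7), and neither of these was called. Of the 14 ratios, 11 were below 1 and 3 above. *Adam10*, another protease gene of this list and named outside the rule for named genes, had 111.1 and 86.9. Its ratio was 0.783 [0.747 to 0.820], and it was not called.

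Among 5 genes of cell-surface partners of the ligands and receptors, 4 were called lower (80%, against 11.0% over all genes compared). All 5 had a ratio below 1. *Cd44*, a hyaluronan receptor that can present HB-EGF, had 36.9 and 1.45, a level 25.5-fold lower [19.1 to 34.7]. *Muc4*, which encodes a membrane mucin that binds ERBB2, had 2.34 (99 reads) and 0.272 (9 reads). *Muc1*, another membrane mucin gene, was 3.02-fold lower (37.0 and 12.2) and *Cd9*, whose tetraspanin associates with the HB-EGF precursor, 2.41-fold lower (125.8 and 52.1). *Cd82*, a further tetraspanin gene, had 106.1 and 77.6 and was not called.

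The list of 15 receptor inhibitors and turnover factors was close to the whole table, with a median of -0.19. None was called higher and 1 was called lower (6.67%, against 11.0% over all genes compared). *Errfi1*, which encodes the kinase inhibitor MIG6, had 508.3 and 635.1, a ratio of 1.25 [1.23 to 1.27]. *Ptpn12*, a tyrosine phosphatase gene, was the called one, with 67.5 and 30.3. The other genes with the largest differences were *Usp8*, a deubiquitinase gene (ratio 1.49), *Hgs*, which sorts endocytosed receptors (0.767), and *Ptpn1*, a phosphatase gene (0.769).

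In the 39-gene signaling chain from adaptors to PI3 kinase, ERK and STAT, none was called higher and 4 were called lower. Those 4 were 10.3% of the list, near the 11.0% called lower over all genes compared. The median of -0.02 was that of all genes to 2 decimals. *Stat3* had 220.8 and 67.5, a level 3.27-fold lower [3.12 to 3.43]. *Eif4ebp1*, a translation repressor gene, was 3.01-fold lower (26.1 and 8.67). *Nras* (65.9 and 32.3, ratio 0.490) and *Pik3cd*, a catalytic PI3 kinase gene prominent in leukocytes (5.54 and 2.72, ratio 0.490), lay just past the threshold.

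More of the ERK-responsive genes, which ERK signaling switches on, were past the threshold. Of 20 genes, 13 were called lower (65%, against 11.0% over all genes compared) and none was called higher. A ratio below 1 was found for 19, with a median of -1.52 against -0.02 over all genes compared. *Dusp5*, a phosphatase gene of the ERK feedback, had 19.4 (824 reads) and 0.423 (14 reads), a level 46.0-fold lower [27.2 to 84.5]. *Plaur*, the urokinase receptor gene, had 62.5 and 2.54, a level 24.6-fold lower [19.8 to 31.0]. *Etv4*, an ETS factor gene, had 9.20 and 0.483, a level 19.0-fold lower [11.6 to 33.6]. *Fosl1*, which encodes an AP-1 subunit, had 1745 reads in WT+AKI and 1 read in TG+AKI, a ratio of 0.000734 [1.86e-05 to 0.00409]. The 7 genes not called are named outside the rule for named genes. Their ratios were 0.561 (*Dusp6*), 0.764 (*Ccnd1*), 0.768 (*Spred2*), 0.785 (*Spry1*), 0.787 (*Spred1*), 0.963 (*Etv5*) and 1.03 (*Ier3*). Many signals other than ERBB receptors also act on the genes of this list, and which of those signals applied was not tested.

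**Figure D4:**
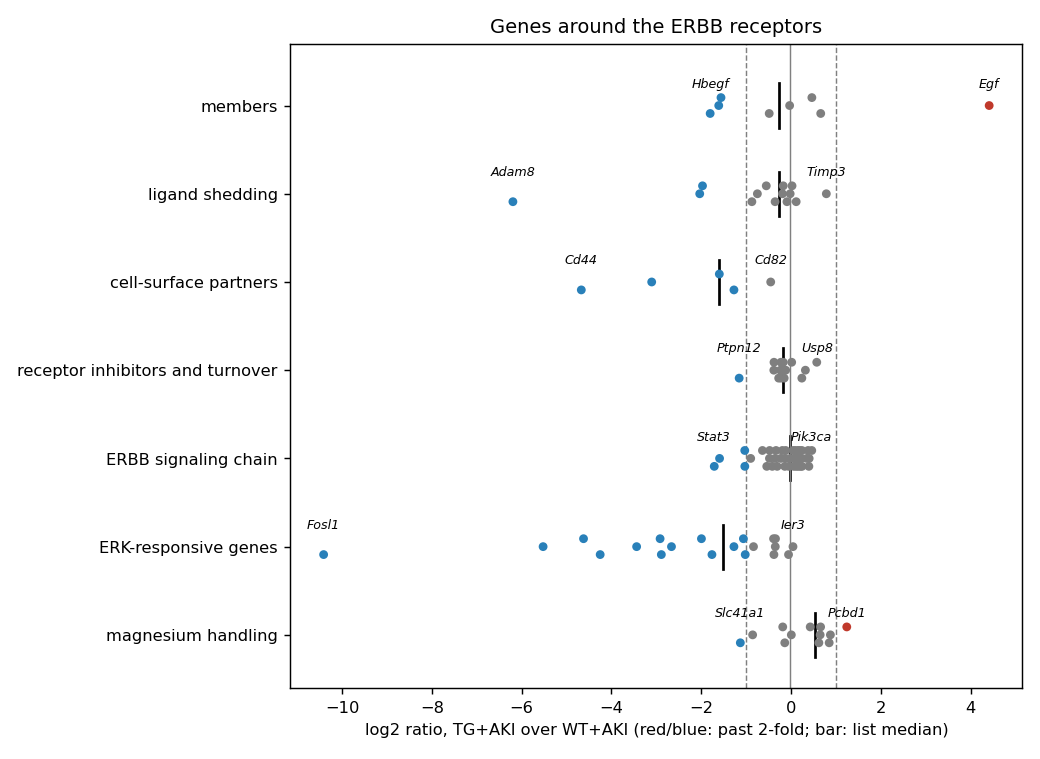
Log2 ratio of TG+AKI over WT+AKI for the compared genes of 7 lists, 1 point per gene, red or blue past 2-fold, with the list median as a black bar and the median of all genes as a grey line. The ERK-responsive genes and cell-surface partners lie to the left (medians -1.52 and -1.60), while the signaling chain centres on the grey line (-0.02).

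Magnesium handling was included because EGF acts on the magnesium channel TRPM6. Of 13 genes, 12 were compared, with 1 called higher, 1 called lower and a median of 0.53. Each call was 8.33% of the list, against 7.35% higher and 11.0% lower over all genes compared. *Pcbd1*, which encodes a transcriptional cofactor and pterin dehydratase, had 68.3 and 161.6, a ratio of 2.37 [2.26 to 2.48]. *Slc41a1*, a magnesium transporter gene, had 54.4 and 24.9, a level 2.19-fold lower [2.02 to 2.37], and *Slc41a3* of the same family had 3.82 and 2.11 (ratio 0.553). *Kcnj10*, a potassium channel gene of the distal tubule, had a ratio of 1.84. *Trpm6* itself had 6.89 and 9.27, a ratio of 1.35 that did not pass 2-fold and that is named outside the rule for named genes. *Kcna1* fell under the filter.

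The segments that transcribe *Egf* were described next through their markers. Of 10 thick ascending limb markers, 5 were called higher (50%, against 7.35% over all genes compared) and none lower. The median was 0.99, and the thick ascending limb markers had summed values of 2162.9 and 3692.6. Their largest ratios were those of *Bsnd* (4.02), *Ppp1r1a* (3.13), the cotransporter gene *Slc12a1* (2.65) and *Cldn10* (2.42). *Umod*, the uromodulin gene, had 1.35, and *Cldn16* (0.909) and *Cldn19* (0.881 [0.806 to 0.962]) had ratios below 1. These 3 genes are named outside the rule for named genes. Of 8 distal convoluted tubule markers, 4 were called higher (also 50%) and none lower, with a median of 1.23 and sums of 569.2 and 1317.1. *Slc12a3*, the thiazide-sensitive cotransporter gene, had 98.5 and 507.0, a ratio of 5.15 [4.97 to 5.32]. *Klhl3* (ratio 3.30) and *Emx1* (2.98) followed, and *Pvalb* had 12 and 259 reads, a ratio of 27.6 [15.5 to 54.2]. The ratio of *Egf* thus lay above those of all listed thick ascending limb markers and of all distal convoluted tubule markers except *Pvalb*, whose interval includes it. The part of these segments in the *Egf* ratio was not tested.

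Markers of other cells differed too, beside 7.35% called higher and 11.0% called lower over all genes compared. All 10 proximal tubule markers were called higher, with a median of 1.69 and sums of 5255.9 and 17728.1. *Slc7a13* (ratio 13.1), *Slc34a1* (7.06), *Slc5a12* (4.62) and *Lrp2* (4.27) had the highest ratios. Of 11 injured tubule markers, 10 were called lower and none higher, with a median of -3.05 and sums of 13394.3 and 961.9. *Krt20* (16926 and 12 reads), *Havcr1* (49554 and 92 reads), *Lcn2* (10589 and 62 reads) and *Sox9* (490 and 17 reads) differed most. Macrophage and neutrophil markers had 7 lower calls among 9 compared and sums of 191.2 and 82.9, with *Cd68* 26.7-fold, *Itgam* 18.8-fold, *S100a9* 7.99-fold and *Lyz2* 3.59-fold lower. Outside the rule for named genes, *Csf1r*, the macrophage growth factor receptor gene, had 37.5 and 43.0, a ratio of 1.15 [1.07 to 1.23], and *Ptprc* had a ratio of 0.530; neither was called. Fibroblast and mural markers had 3 lower calls among 6 and sums of 529.6 and 247.0, with *Col1a1* (ratio 0.232), *Col3a1* (0.259), *Dcn* (0.458) and *Pdgfrb* (0.536) lowest. The part of these cells in the lower values of *Hbegf*, *Tgfa* and *Nrg1* was not tested.

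Remaining lists differed less (over all genes compared, 7.35% were called higher and 11.0% lower). Collecting duct markers had 2 higher calls among 10 (*Slc4a1*, ratio 4.45, and *Avpr2*, 2.11; *Aqp3* had 1.70 and *Hsd11b2* 1.69), a median of 0.29 and sums of 436.3 and 583.5. In that list 3 ratios were below 1, those of *Scnn1b* (0.830 [0.772 to 0.892]), *Fxyd4* (0.942) and *Atp6v1g3* (0.977), named outside the rule. Podocyte markers had 1 higher call among 6 (*Magi2*, ratio 2.72), with *Podxl* at 1.14 and *Synpo* at 0.720, and sums of 428.5 and 469.0. None of 6 endothelial markers was called, the largest differences being those of *Kdr* (1.65), *Flt1* (0.709), *Pecam1* (0.731) and *Ehd3* (1.31), with sums of 395.6 and 381.3. None of 8 housekeeping genes was called, with a median of -0.23, *Hprt* lowest at 0.578, *Rplp0* at 0.629, *Actb* at 0.791 and *Pgk1* at 1.20.

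Urothelium, another possible source of EGFR ligands, was near the lower limit, with summed marker values of 5.14 and 2.60. *Upk1a* (1.06 and 1.18) and *Krt5* (2.59 and 0.332) passed the filter, and *Upk1b*, *Upk2* and *Upk3a* did not. The part of these cells in the ligand values was not tested.

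**Figure D5:**
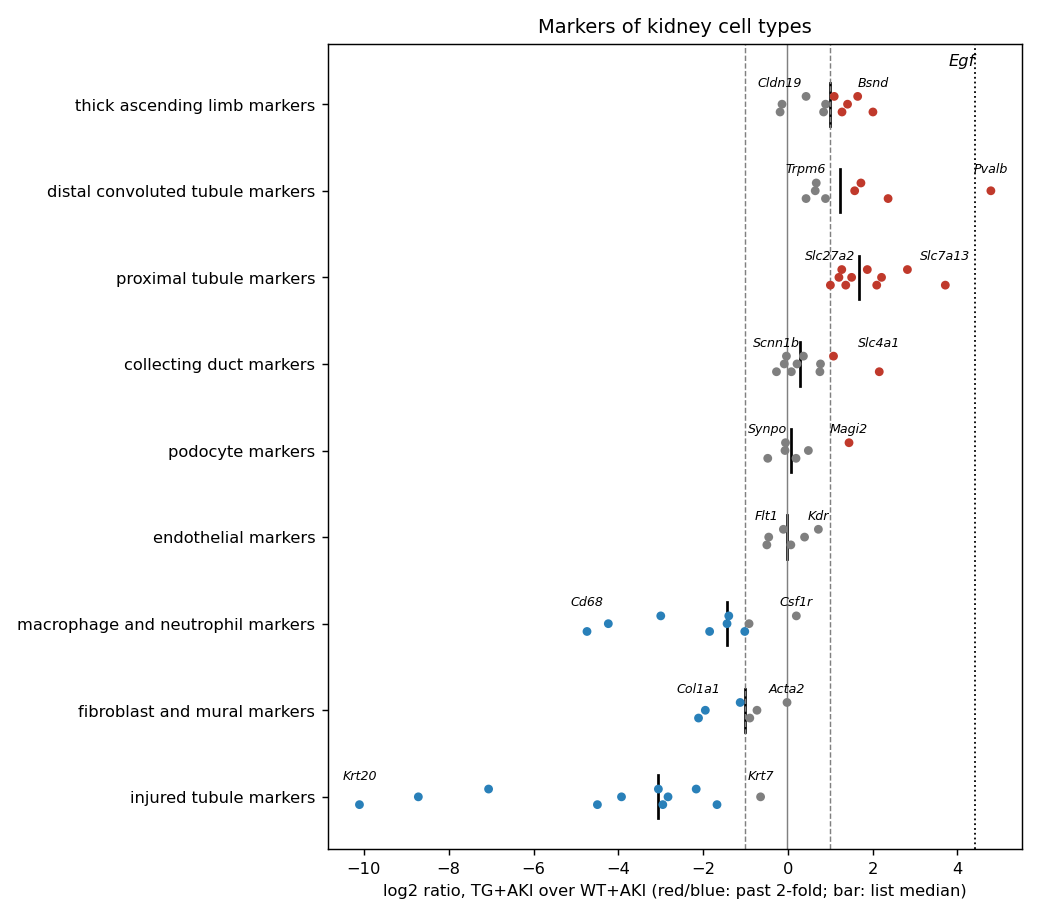
Log2 ratio of TG+AKI over WT+AKI for markers of 9 kidney cell types, 1 point per gene, red or blue past 2-fold, with list medians as black bars and *Egf* as a dotted line. Proximal, thick ascending limb and distal convoluted markers lie to the right (medians 1.69, 0.99 and 1.23), injured tubule markers to the left (-3.05), and *Pvalb* alone lies beyond *Egf*.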

How the data were processed

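Whole-kidney mRNA was compared between 2 libraries, 1 per group, and whether mice were pooled is not stated. Per the labels, a stranded mRNA kit (TruSeq) was used and the build was mm10. The study's methods name STAR 2.7.3a and HTSeq for alignment and counting and DESeq2 for normalization. The processing tools listed with the samples also include edgeR, and which tool made the deposited scale was not established here. DESeq2 size factors computed here on the recovered reads shifted the log2 ratios by 0.016 from the deposited scale. The annotation and the use of strand in counting are not given in the sources used here. The deposited values are a normalized signal, made by the authors by dividing read counts per gene by a factor per library. All values (100%, tolerance 0.01 reads) were whole multiples of the smallest value of their column, which gave back the whole reads. Columns summed to 909104 and 1099984. No p-value was computed, since genes are not replicates. Ratios used no pseudocount. Genes with 3 reads or fewer in a library are given by reads and interval.

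Members and the 19 further lists (202 genes) were chosen with earlier results of these data known. A few of these genes and 1 cell marker list are not reported here. The named genes were all members, the up to 4 largest differences per list (all genes of lists of at most 5), *Adam17*, *Errfi1*, *Inmt* and the 5 genes nearest to *Egf* in ratio. Gene positions and lengths came from GENCODE M21 (GRCm38). None of the 100-base words of the members' longest transcripts occurred in another gene. The calculation of calls and intervals was run on simulated reads with known ratios, counting error alone and no spread between mice. Such a run checks the calculation and cannot show whether the calls between these libraries would recur in other mice. Python 3.11.15, numpy 2.4.6, scipy 1.17.1 and pandas 2.3.3 were used.

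Alternatives were 3 other scalings (equal column totals, a median ratio of 1 for genes that reach 100 in each library, and DESeq2's median-of-ratios size factors on the recovered reads), pseudocounts of 0.1 and 1, no filter or a filter of 10, a 1.5-fold rule, intervals wholly past 2-fold, and the median transcript length.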

Additional observations from a re-analysis of the deposited data

How the results depend on the processing

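The 4 member calls were the same genes under every alternative, and the 1.5-fold rule added *Erbb4*, giving 2 higher members. No log2 ratio of the 8 members changed sign, and 14 of their 40 values moved beyond the counting interval. Equal column totals shifted all log2 ratios by -0.27 and a median ratio of 1 shifted them by -0.14. Over all genes, 694 were called higher (4.67%) and 2372 lower (16.0%) with equal column totals, and 869 and 1981 with a median ratio of 1. The higher and lower counts were 1821 and 2489 without a filter, 629 and 790 with a filter of 10 (fewer genes compared), and 2349 and 2927 with the 1.5-fold rule. Of 17 list medians 15 never changed sign. The podocyte median became -0.21 with equal totals and -0.077 with a median ratio of 1, and the signaling chain median became 0.015 with a filter of 10. Per-length shares moved with the transcript length, and those of the receptors changed their order. Depth limits *Nrg4* (57 and 31 reads) and *Fosl1* (1 read in TG+AKI). No paired analysis was possible because each group has 1 library. No setting with a library left out was possible for the same reason.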
